A study of Mus musculus with 10 samples.

Results

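The cell proliferation genes described here are 59 genes, 29 that act in DNA replication (S phase) and 30 that act in mitosis. They were chosen by name, and each was found by its symbol in all 10 library tables, among 21938 genes in all. The choice followed known roles and no cut on their values, but it was made with earlier results of these data known. The S phase genes were sorted by textbook role into 5 classes and the mitosis genes into 6.

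RNA was sequenced from macrophages that had been sorted by flow cytometry from mouse mammary tumours. All mice were C57BL/6, and each had received PyMT mammary tumour cells, which carry a polyoma virus oncogene, in 2 mammary glands; tumours grew for 5 weeks. Control stands for wild-type tumour cells grown in wild-type mice, with 3 libraries. Mertk KO is the label of 4 libraries in which wild-type tumour cells grew in mice lacking MerTK in macrophages only; MerTK is a receptor through which macrophages engulf dying cells, and the driver of the knockout is not given in the labels. Ptdss1 knockdown, with 3 libraries, pairs wild-type hosts with tumour cells depleted of Ptdss1, a synthase of phosphatidylserine, the lipid that marks dying cells for uptake. The age of the mice, and whether a library came from 1 animal, are not stated, so p-values measure only the spread between these libraries, which may be technical.

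A dividing cell first loads the MCM helicase onto its DNA, then copies the DNA with polymerases held by the PCNA clamp, and in mitosis divides the copies with cyclin-dependent kinase 1, Aurora kinases and the spindle. Many S phase genes are switched on by E2F factors, and many mitosis genes by B-MYB and FOXM1 complexes at CHR and CCAAT promoter elements, so each set tends to be read out as a unit. Tissue macrophages can divide in place, while others arrive from blood monocytes and do not divide until they have settled. In bulk RNA, fewer dividing cells and less RNA per dividing cell cannot be told apart.

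Between 10292592 and 25815071 reads per library were assigned to genes, and 11564 genes with at least 10 reads in at least 3 libraries were tested, all 59 proliferation genes among them. Detection was uneven. Ptdss1 knockdown replicate 1 had 6995 genes with at least 10 reads and control replicate 2 had 9066, against 9585 to 11523 in the other 8 libraries. Those first 2 libraries are called low-detection libraries below, and the main results are given with and without them. Neither is a Mertk KO library, so leaving them out removes only control and knockdown libraries. Of the 59 genes, Mertk KO replicate 4, which is kept, had 29 at 10 reads or more, and control replicate 2 had 42. Mertk itself had log2 levels of 10.63, 9.72, 9.24 and 8.95 in the libraries labelled Mertk KO, with a mean of 9.64 ± 0.74 (SD, n = 4), and of 9.64, 9.26 and 10.97 in control, with a mean of 9.96 ± 0.90 (SD, n = 3). The groups overlapped, with 2 Mertk KO libraries below all controls, and reads over the whole gene do not show whether the transcript was intact. The Ptdss1 knockdown was made in tumour cells, which were not the cells sequenced, so the level of Ptdss1 here checks no label. Macrophage markers were high in every library, with 23700 to 47100 RPM (reads per 1000000 reads assigned to genes) summed over 12 genes, among them the complement genes C1qa, C1qb and C1qc.

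Promoter sequence shows how the classes differ before any expression value. RefSeq promoters of the GRCm38.p6 build were at hand for 49 of the 59 genes, 25 of S phase and 24 of mitosis. The 250 bases before each start were searched on both strands for the E2F motifs TTCCCGC and TTGGCGC, the CHR motif TTTGAA and the CCAAT box. An E2F motif stood before 9 of the 25 S phase genes (36%) and 3 of the 24 mitosis genes (12.5%), against 6.45% of all genes with a promoter and 11.8% of those tested; the 3 were Cdk1, cyclin B1 (Ccnb1) and Mki67. A CHR motif together with a CCAAT box stood before 2 of 25 S phase genes (8.0%) and 9 of 24 mitosis genes (37.5%), against 6.45% of all genes and 4.96% of those tested. Alone, the CHR motif was before 3 S phase genes (12%) and the same 9 mitosis genes, against 18.3% of all and 13.1% of tested genes, and the CCAAT box before 14 (56.0%) and 18 (75.0%), against 37.5% and 40.8%. The second E2F motif begins with the letters that end a CCAAT box read on the other strand, so both can share bases.

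The stretches of 100 bases below show these letters for 4 S phase genes with an E2F motif and 3 mitosis genes with CHR and CCAAT, each 5′ to 3′ on its gene's strand with the motifs in capitals. They lie at chr8:75109345-75109444 (Mcm5, plus), chr1:128359715-128359814 (Mcm6, minus), chr7:102441595-102441694 (Rrm1, plus), chr17:56040316-56040415 (Chaf1a, plus), chr19:37376282-37376381 (Kif11, plus), chr7:135716468-135716567 (Mki67, minus) and chr11:99024190-99024289 (Top2a, minus). A match is a description of the letters and not a bound site.
Mcm5: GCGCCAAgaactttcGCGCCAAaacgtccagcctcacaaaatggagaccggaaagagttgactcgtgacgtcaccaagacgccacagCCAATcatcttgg
Mcm6: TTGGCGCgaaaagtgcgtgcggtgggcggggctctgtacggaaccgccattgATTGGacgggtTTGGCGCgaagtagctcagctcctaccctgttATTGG
Rrm1: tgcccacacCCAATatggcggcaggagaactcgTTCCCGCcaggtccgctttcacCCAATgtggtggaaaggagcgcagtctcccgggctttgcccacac
Chaf1a: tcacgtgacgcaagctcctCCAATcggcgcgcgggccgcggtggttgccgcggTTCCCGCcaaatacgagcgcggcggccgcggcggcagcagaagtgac
Kif11: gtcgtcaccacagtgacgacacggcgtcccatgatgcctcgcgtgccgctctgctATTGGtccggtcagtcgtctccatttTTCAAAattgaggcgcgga
Mki67: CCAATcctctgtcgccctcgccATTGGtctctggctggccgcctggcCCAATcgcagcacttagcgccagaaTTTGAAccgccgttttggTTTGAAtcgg
Top2a: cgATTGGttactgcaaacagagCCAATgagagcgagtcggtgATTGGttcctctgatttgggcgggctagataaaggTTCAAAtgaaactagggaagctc
Mcm5 carries the E2F letters in a pair near its 5′ end, Mcm6 on both sides of a CCAAT box, and Mki67 carries a pair of CHR motifs behind several CCAAT boxes.

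Pcna, the sliding clamp of DNA polymerases, had the highest level per length, with a median over libraries of 983.3 normalised reads per kilobase of exon. The condensin subunit Smc4 followed at 180.2, then the survivin gene Birc5 at 153.5, cyclin B2 (Ccnb2) at 151.9 and the clamp loader subunit Rfc4 at 148.6. The lowest medians were those of the polo-like kinase Plk1 at 2.5, the B-MYB gene Mybl2 at 1.5 and the chromatin assembly subunit Chaf1a at 1.4. Pcna has 2 named pseudogenes, Pcna-ps1 and Pcna-ps2, and Ccnb2, Ccnb1 and Tyms have 1 each; their share in the reads of these 4 genes was not tested. Levels from here on are log2(size-factor-normalised reads + 1), which is not per length, so they are compared between libraries and not between genes.

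**Figure D1:**
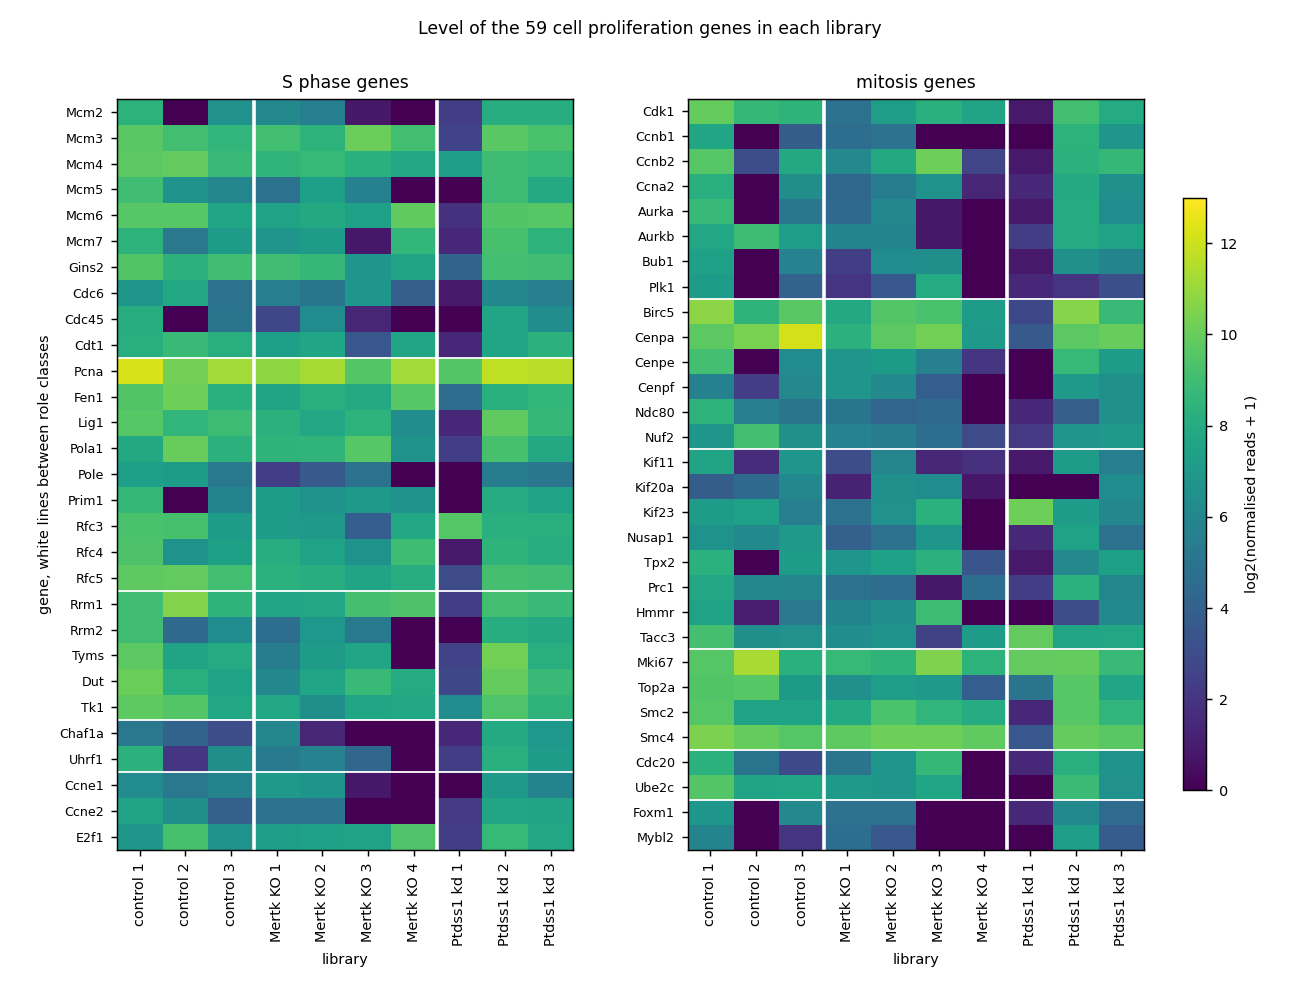
Level of each of the 59 genes, in log2(normalised reads + 1), in each of the 10 libraries, with S phase genes on the left and mitosis genes on the right; white lines part the role classes (horizontal) and the groups (vertical). Ptdss1 knockdown replicate 1 is dark over most rows, Mertk KO replicate 4 has 24 genes at 0 reads and control replicate 2 has 12, while other genes of the same libraries are as high as anywhere.

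Detection of the 59 genes differed widely within each group. At least 10 reads were found for 59, 42 and 57 of them in control replicates 1 to 3, for 53, 58, 45 and 29 in the libraries labelled Mertk KO, and for 12, 56 and 59 in Ptdss1 knockdown. The 3 groups overlapped throughout, and each had at least 1 library with 45 or fewer genes. Mertk KO replicate 4 held no read of 24 genes, Ptdss1 knockdown replicate 1 none of 13, and control replicate 2 none of 12. Mertk KO replicate 3 lacked 5 and Ptdss1 knockdown replicate 2 lacked 1. A count of 0 allows up to 3 reads, or 0.116 to 0.291 RPM across libraries, and covers counting error only. Reads come from amplified cDNA with no molecular identifiers.

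Only 10 of the 59 genes reached 10 reads in all 10 libraries: Mcm4, Gins2, Pcna, Fen1, Rfc3, Tk1, Cenpa, Mki67, Top2a and Smc4. A further 16 did so in 9 libraries, 11 in 8, 10 in 7, 8 in 6 and 4 in 5. Those last 4 were the helicase activator Cdc45, Plk1, the spindle motor Kif11 and Mybl2. Members of one complex were detected apart from each other. In control replicate 2, the helicase subunit Mcm2 and the primase subunit Prim1 were at 0, while the polymerase alpha subunit Pola1 stood at 9.98, the ribonucleotide reductase subunit Rrm1 at 10.53 and Mki67 at 11.31, each the highest of the 10 libraries. In Mertk KO replicate 4, Mcm2 and Mcm5 were at 0 and Mcm6 at 9.83, the highest of the 10.

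Libraries with more detected genes overall had more of the 59. Across the 10 libraries the 2 numbers had Pearson's r of 0.90 and Spearman's rho of 0.87, and r of 0.72 and rho of 0.79 over the 8 libraries left when the 2 farthest from the median of detected genes were set aside. This is a description, given without a test: the points share the library and the proliferation genes are themselves counted among all genes. Thinning every library to the smallest total left 58, 42 and 54 genes in control, 53, 54, 43 and 27 in Mertk KO and 9, 56 and 58 in Ptdss1 knockdown, so the same 4 libraries were lowest at equal depth. At that depth r was 0.89 and rho 0.70 over 10 libraries, and 0.69 and 0.46 over 8.

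**Figure D2:**
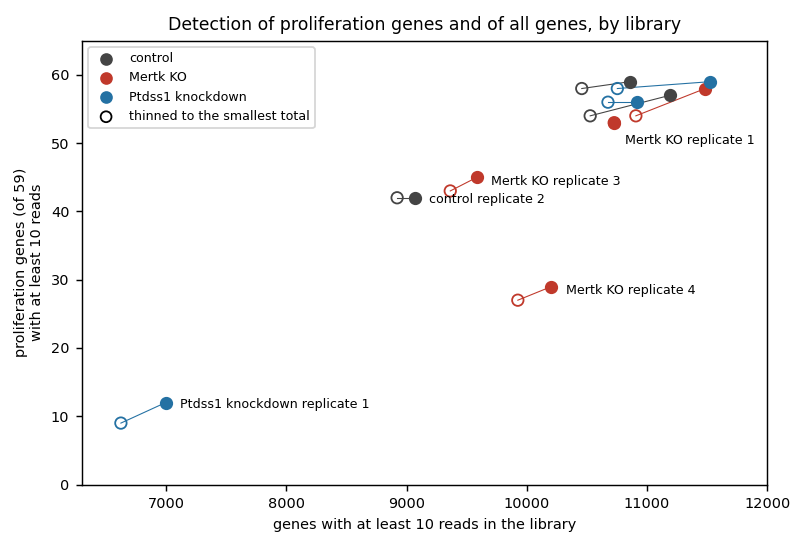
Proliferation genes with at least 10 reads (of 59) against all genes with at least 10 reads, 1 point per library; open circles are the same libraries thinned to the smallest total, which is that of Mertk KO replicate 1. Ptdss1 knockdown replicate 1 lies lowest on both axes, and Mertk KO replicate 4 has 29 proliferation genes although its 10205 detected genes are in the range of other libraries.

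The link did not hold to the same extent in every library. Of the proliferation genes that were detected in at least 7 of the other 9 libraries, Ptdss1 knockdown replicate 1 missed 35 of 47 (74.5%), against 31.5% of all genes so detected. Mertk KO replicate 4 missed 18 of 47 (38.3%) against 5.75% of all genes. Control replicate 2 missed 7 of 42 (16.7%) against 13.1%, and Mertk KO replicate 3 missed 6 of 40 (15%) against 8.6%. The other 6 libraries missed 0 or 1. The proliferation genes also stood lower in the other libraries than the genes they are set against, with a median of 7.55 against 8.77 on the log2 scale for Mertk KO replicate 4, and the shares were not matched for level. In that library fewer mitosis genes were detected, 10 of 30 at 10 reads or more, against 19 of 29 S phase genes.

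Summed reads gave another order than detection. The 29 S phase genes together took 1162, 809.6 and 448.8 RPM in control, 429.6, 460.2, 384.5 and 507.3 in Mertk KO, and 89.37, 1079 and 737.6 in Ptdss1 knockdown. Control had a mean of 806.8 ± 356.6 (SD, n = 3), Mertk KO 445.4 ± 51.67 (SD, n = 4) and Ptdss1 knockdown 635.3 ± 502.7 (SD, n = 3). The 4 Mertk KO libraries lay close together. Control replicate 3, at 448.8, was below 2 of them and above 2. Besides it, only Ptdss1 knockdown replicate 1, a low-detection library, lay below any of them, at 89.37. Without the low-detection libraries the means were 805.4 in control and 908.3 in Ptdss1 knockdown.

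The 30 mitosis genes took 831.7, 542.4 and 500.4 RPM in control, 217.7, 366.0, 568.5 and 127.5 in Mertk KO, and 152.7, 717.3 and 371.8 in Ptdss1 knockdown. The means were 624.8 ± 180.4 (SD, n = 3), 319.9 ± 192.7 (SD, n = 4) and 413.9 ± 284.6 (SD, n = 3). Mertk KO replicate 3 was above 2 of the 3 controls and the other 3 were below all of them. The lowest control sum, in replicate 3, leaned on 1 gene: Cenpa held 6197 of its 12140 mitosis reads. The order against that control therefore depends on Cenpa. Without the low-detection libraries the means were 666.0 in control and 544.5 in Ptdss1 knockdown. Libraries with a high S phase sum tended to have a high mitosis sum, with r of 0.78 and rho of 0.56, and with r of 0.72 and rho of 0.40 without the low-detection libraries, again as a description. The sums were less tied to the number of detected genes. Pearson's r was 0.48 for S phase and 0.32 for mitosis over 10 libraries, 0.25 and 0.02 over the 8 libraries nearest the median, and 0.06 and -0.07 without Ptdss1 knockdown replicate 1 alone.

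**Figure D3:**
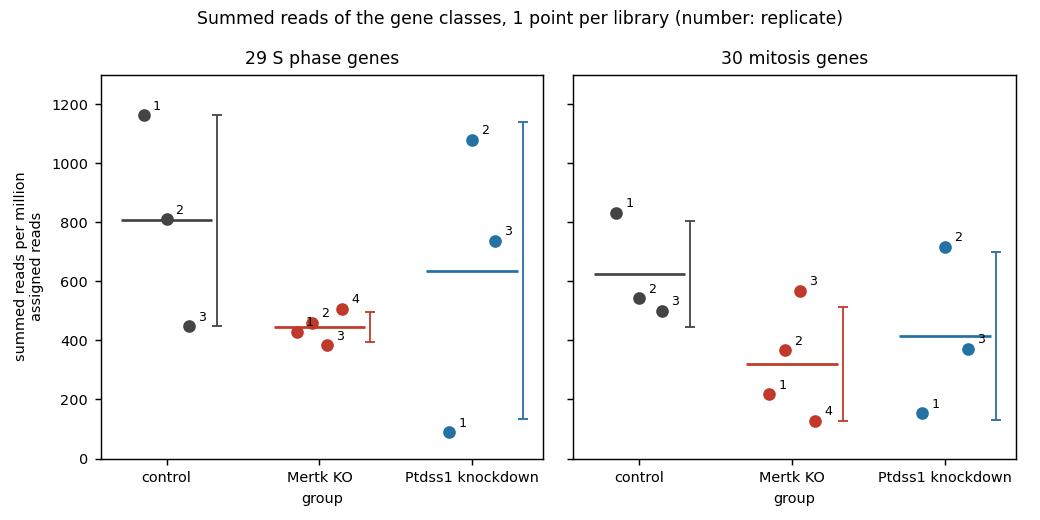
Summed RPM of the 29 S phase genes (left) and the 30 mitosis genes (right), 1 point per library with its replicate number; lines are group means and bars SD. Mertk KO libraries span 384.5 to 507.3 for S phase and 127.5 to 568.5 for mitosis, and the ranges of control, 448.8 to 1162 and 500.4 to 831.7, overlap them.

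Single genes made up much of some sums. In Ptdss1 knockdown replicate 1 the spindle motor Kif23, the spindle protein Tacc3, the proliferation antigen Mki67 and the clamp loader subunit Rfc3 held 76.9% of the 5675 reads of the 59 genes. Kif23 at 10.15, Tacc3 at 9.89 and Rfc3 at 9.59 were higher there than in any other library, in a library with 12 of the 59 genes at 10 reads or more. In control replicate 3, Cenpa, the centromeric histone H3 variant, stood at 12.15, the highest value of that gene.

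Macrophages labelled Mertk KO were compared with control first. Most of the genes lay lower in Mertk KO, and 0 of the 59 passed limma's test at an adjusted p of 0.05, where 0.0173% of all genes tested did. The median log2 fold change was -1.31 over S phase genes and -1.31 over mitosis genes, with 25 of 29 and 25 of 30 below 0. Over all 11564 genes the median was 0.02 and 49.1% were below 0. The mitosis result leaned on single libraries: without control replicate 1 its median was -0.62, with 17 of 30 below 0 against 48.5% of all genes, and without Mertk KO replicate 4 it was -0.55, with 18 of 30 below 0 against 47.3%. In S phase the median was -0.98 in both cases, with 25 and 26 of 29 below 0. At an unadjusted p of 0.05, 1 of the 59 passed, against 2.06% of all genes. That count depends on the shared spread: it was 12, against 5.38%, without Ptdss1 knockdown replicate 1, which is in neither group compared. It was 8, against 4.03%, in a fit of only these 2 groups and 15, against 7.14%, with library weights, and 0 passed the adjusted threshold in each. The sign is shared by genes that tend to be read out together, so the counts are not 59 separate observations.

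For 10 of the 59 genes (16.9%) all 4 Mertk KO libraries lay below all 3 controls, against 2.62% of all genes tested, and for 0 of 59 all lay above, against 3.00%. The 10 were Cdt1, Mcm4, Lig1, Pole, Rfc5 and Tk1 of S phase and Aurkb, Cdk1, Nuf2 and Prc1 of mitosis. Without the low-detection libraries, which leaves 2 controls, 17 genes (28.8%) lay below and 1 above, against 6.73% and 6.63% of all genes. These 17 held all 10. There 9 genes had an unadjusted p below 0.05, against 5.02% of all genes, and 0 passed the threshold.

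Helicase loading and activation came lower for 9 of its 10 genes, with a median log2 fold change of -1.16. Mcm4, a subunit of the MCM helicase (chr16:15623897-15637400), stood at 9.71, 9.86 and 8.79 in control against 8.49, 8.69, 8.25 and 7.76 in Mertk KO. The lowest control stood just above the highest Mertk KO library, and the fold change was -1.16 (SE 0.78, limma adjusted p = 1.0). Cdt1, which loads that helicase, was at 8.15, 8.77 and 8.13 against 7.34, 7.68, 3.53 and 7.71, where replicate 3 stood far below the others. Its fold change of -1.79 (SE 1.70, limma adjusted p = 1.0) was -0.78 without that library and -2.17 without replicate 4.

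At the replication fork 7 of 9 genes were below 0, with a median of -0.94. Pole, the catalytic subunit of the leading-strand polymerase epsilon (chr5:110286306-110337474), was at 7.36, 7.17 and 5.26 in control against 2.43, 3.64, 4.87 and 0.0 in Mertk KO, a fold change of -3.86 (SE 1.88, limma adjusted p = 1.0). The Mertk KO libraries held only 3, 14, 35 and 0 reads of Pole. Rfc5, a clamp loader subunit (chr5:117378103-117389047), was at 9.80, 9.90 and 9.06 against 8.29, 8.09, 7.59 and 8.12. Both groups were tight for Rfc5, with SDs of 0.46 and 0.30, and the fold change was -1.56 (SE 1.25, limma adjusted p = 1.0). The error is wider than those SDs because all 3 groups share 1 estimate of the spread and Ptdss1 knockdown had an SD of 3.53 for Rfc5.

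Lig1, the ligase that joins Okazaki fragments, was at 9.60, 8.58 and 8.93 against 8.37, 7.74, 8.41 and 6.38, a fold change of -1.31 (SE 1.55, limma adjusted p = 1.0). Pcna was at 12.19, 10.3 and 11.22 against 10.81, 11.25, 9.51 and 11.19, and the groups overlapped. Its fold change was -0.55 (SE 0.62, limma adjusted p = 1.0), and without single libraries it ran from -1.01 (control replicate 2 left out) to -0.07 (control replicate 1 left out). Rfc3 was at 9.28, 9.24 and 7.18 against 7.15, 6.96, 3.88 and 7.72, with 1 Mertk KO library above the lowest control, and a fold change of -2.14 (SE 1.2, limma adjusted p = 1.0).

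All 5 genes of nucleotide supply were below 0, with a median of -1.63. Tk1, the thymidine kinase of dividing cells (chr11:117815526-117826092), was at 9.76, 9.54 and 7.82 in control against 7.75, 6.47, 7.69 and 7.75 in Mertk KO. The highest Mertk KO libraries lay just under control replicate 3, and the fold change was -1.63 (SE 1.04, limma adjusted p = 1.0). Rrm1, the large subunit of ribonucleotide reductase, overlapped, at 9.0, 10.53 and 8.44 against 7.65, 7.73, 9.15 and 9.35.

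The chromatin and G1/S classes were small and scattered. Uhrf1, which guides DNA methylation to new strands, was at 8.33, 2.05 and 6.41 in control against 5.34, 5.74, 4.29 and 0.0 in Mertk KO. E2f1, the activator of S phase genes, went against the others: it stood at 6.88, 9.20 and 6.65 in control against 7.26, 7.42, 7.47 and 9.44 in Mertk KO, so that all 4 were above 2 of the controls. It did not pass the test.

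All 8 mitotic kinases and cyclins were below 0, with a median log2 fold change of -1.01. Aurkb, the kinase of the chromosomal passenger complex (chr11:69045647-69051664), was at 7.75, 8.94 and 7.25 in control against 5.86, 5.88, 0.86 and 0.0 in Mertk KO. It had the lowest unadjusted p of the 59, with a fold change of -4.83 (SE 1.98, limma adjusted p = 1.0). Leaving out single libraries moved the fold change between -5.74 and -3.78. Mertk KO replicates 3 and 4 held 1 and 0 reads of Aurkb, so the size of its fold change rests partly on counts near 0. Cdk1, the kinase that starts mitosis (chr10:69335146-69352938), was at 9.94, 8.65 and 8.43 against 4.85, 7.29, 8.25 and 7.58, a fold change of -2.02 (SE 1.68, limma adjusted p = 1.0).

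Of the 6 centromere and kinetochore genes 5 were below 0. Nuf2, a subunit of the complex that grips spindle microtubules (chr1:169497934-169531464), was at 6.90, 9.14 and 6.5 in control against 5.75, 5.44, 4.71 and 3.04 in Mertk KO. All 4 lay below all controls, and the fold change was -2.78 (SE 1.71, limma adjusted p = 1.0). Cenpa was at 9.74, 10.37 and 12.15 against 8.37, 9.70, 10.23 and 6.97, with a fold change of -1.93 (SE 1.33, limma adjusted p = 1.0) and overlapping groups.

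Among 8 spindle and cytokinesis genes 6 were below 0. Prc1, which bundles the microtubules of the central spindle (chr7:80294450-80316259), was at 7.82, 6.09 and 5.93 in control against 4.92, 4.58, 0.86 and 4.69 in Mertk KO, a fold change of -2.85 (SE 1.83, limma adjusted p = 1.0). Without Mertk KO replicate 3, which held 1 read of Prc1, the fold change was -1.88. Tacc3, which steadies spindle microtubules, was at 9.15, 6.46 and 6.60 against 6.38, 6.61, 2.55 and 7.11, and overlapped. Ube2c, the ubiquitin carrier of the anaphase-promoting complex, was at 9.52, 7.58 and 7.66 against 6.97, 6.90, 7.62 and 0.0. Foxm1, an activator of mitosis genes, was at 6.86, 0.0 and 6.12 against 4.92, 4.89, 0.0 and 0.0.

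The 4 genes of chromosome structure split. Top2a, the topoisomerase that untangles sister chromosomes (chr11:98992943-99024189), was at 9.45, 9.60 and 7.08 in control against 6.5, 7.31, 7.02 and 3.87 in Mertk KO, with a fold change of -2.53 (SE 1.42, limma adjusted p = 1.0). Mki67 (chr7:135689784-135716361), the gene of the Ki-67 antigen of dividing cells, was at 9.55, 11.31 and 8.23 against 8.71, 8.48, 10.51 and 8.4. The groups overlapped, and its fold change was -0.67 (SE 0.75, limma adjusted p = 1.0), and without single libraries it ran from -1.40 (control replicate 3 left out) to 0.14 (control replicate 2 left out). Smc4 was level, at 10.44, 9.93 and 9.55 against 9.80, 10.12, 10.15 and 9.84.

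**Figure D4:**
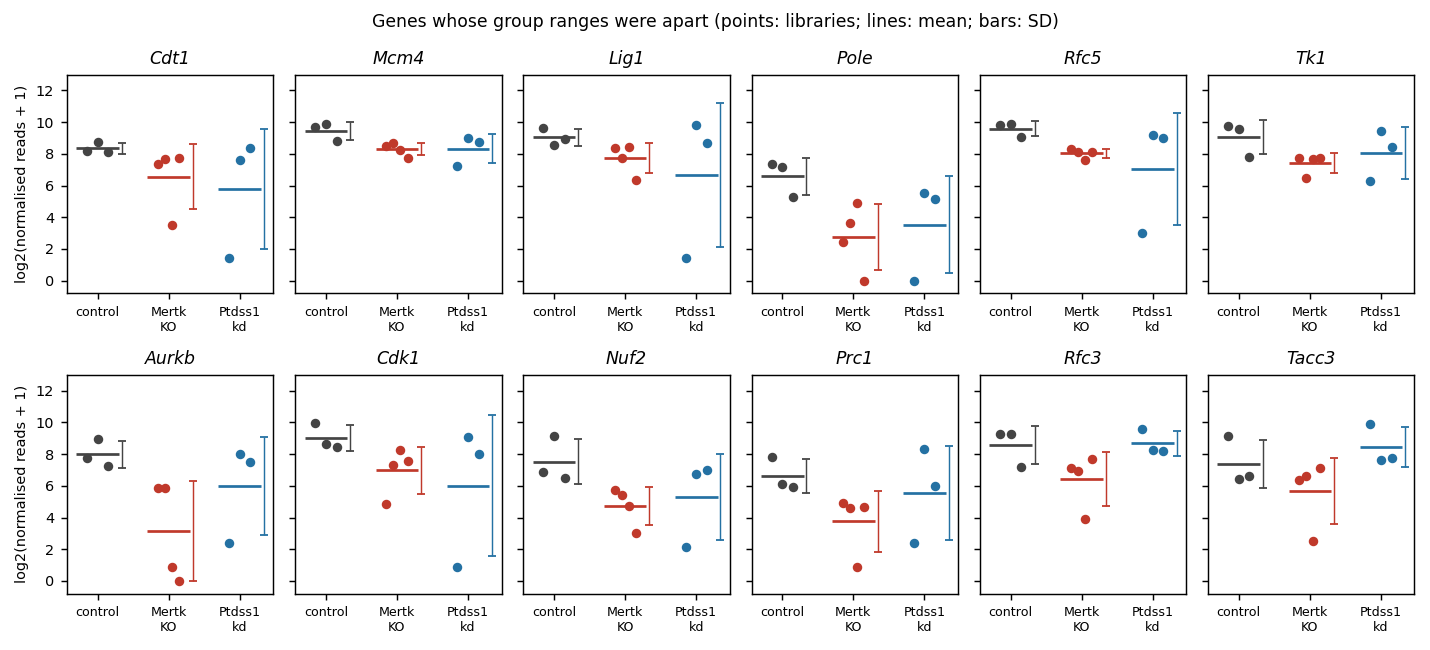
Level in log2(normalised reads + 1) of the 10 genes whose Mertk KO libraries all lay below control, and of Rfc3 and Tacc3, whose Mertk KO libraries all lay below Ptdss1 knockdown; points are libraries, lines means and bars SD. Rfc5 has SDs of 0.46 in control and 0.30 in Mertk KO but 3.53 in Ptdss1 knockdown, and Aurkb spans 0.0 to 5.88 in Mertk KO against 7.25 to 8.94 in control.

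Markers of other cell types also differed between libraries. In Mertk KO against control, 0 of those tested passed limma's threshold. The 8 natural killer cell markers summed to 232.0, 140.0 and 96.0 RPM in control against 54.5, 50.9, 14.6 and 31.6 in Mertk KO, so these groups did not overlap, against 101.0, 176.0 and 62.8 in Ptdss1 knockdown. Klrk1 held most of the sum in control replicates 2 and 3, at 113.0 and 54.5, and all of it in Mertk KO replicate 4. Klrk1 and Nkg7 were each apart in these 2 groups, as were 2.62% of all genes tested in that direction. Gzma, Gzmb and Klrb1c overlapped and were at 0 reads in control replicate 2. Nkg7 and Gzma, of cytotoxic lymphocytes, were at 0 reads in Mertk KO replicate 4, and Ncr1, the defining receptor, was at 0 in all libraries but Ptdss1 knockdown replicate 2, which held 2 reads. The sum of 13 epithelial markers was 21.3 to 33.1 in control, 65.9 to 160.0 in Mertk KO and 0.256 to 61.6 in Ptdss1 knockdown. Most of it was the adhesion gene Cdh1 in 9 of 10 libraries, and the highest sum, in Mertk KO replicate 4, also held 1535 reads of the keratin gene Krt8 and 647 of Krt18. Of the 6 markers tested 3 were below 0 and 3 above in Mertk KO against control, with a median log2 fold change of 0.68, and of 0.07 without the low-detection libraries. Epcam, the defining adhesion gene, was at 0 in all control and Mertk KO libraries. T cell markers reached 36.6 in control, 15.9 in Mertk KO and 55.9 in Ptdss1 knockdown. Mertk KO replicate 3 held 509.0 RPM of dendritic cell markers, nearly all from Cd209a with 9573 reads. The other lists ranged over the libraries from 0.0 to 42.4 for B cells, 0.0 to 27.2 for neutrophils, 0.0853 to 61.8 for fibroblasts, 28.6 to 95.1 for endothelium, 0.0 to 1.05 for red cells and 0.0 to 141.0 for mast cells, whose highest value was 3301 reads of Kit in Ptdss1 knockdown replicate 1. The part of these cells in the proliferation values was not tested.

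In Ptdss1 knockdown against control the result rested on 1 library. Over all 10 libraries the median log2 fold change was -1.44 for S phase genes, with 23 of 29 below 0, and -0.95 for mitosis genes, with 21 of 30 below 0; over all genes 52.0% were below 0 and the median was -0.05. Without Ptdss1 knockdown replicate 1 the medians were 0.47 and 0.18, with 10 of 29 and 13 of 30 below 0. Over all genes the median was then 0.12 and 43.5% were below 0. Without both low-detection libraries they were 0.32 and -0.18, with 10 of 29 and 17 of 30 below 0 against 48.4% of all genes, and 0 of 59 had an unadjusted p below 0.05, against 1.23%. In limma 0 of the 59 passed the threshold, against 0.00% of all genes, and 0 had an unadjusted p below 0.05, against 2.90%. For 0 of 59 genes the groups were apart in either direction, against 3.60% of all genes below and 3.32% above.

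The 4 genes of lowest p all turned on that library. Cenpa was at 9.74, 10.37 and 12.15 in control and 3.62, 9.74 and 9.99 in Ptdss1 knockdown, a fold change of -2.97 (SE 1.42, limma adjusted p = 0.841). Without replicate 1 it was -0.89. Rfc5 was at 2.99, 9.19 and 9.01 in Ptdss1 knockdown, and its fold change went from -2.52 (SE 1.34, limma adjusted p = 0.841) to -0.48. Fen1, the nuclease that trims Okazaki fragments, was at 9.47, 10.14 and 8.26 against 4.66, 8.26 and 8.62, and went from -2.11 (SE 1.14, limma adjusted p = 0.841) to -0.85. Smc4 was at 3.51, 9.91 and 9.67 in Ptdss1 knockdown and went from -2.28 (SE 1.22, limma adjusted p = 0.841) to -0.18. In replicates 2 and 3 of the knockdown, Pcna stood at 11.77 and 11.65, Mcm4 at 8.98 and 8.73 and Top2a at 9.62 and 7.71, and of these values only Mcm4 in replicate 3 and Top2a in replicate 2 lay just outside the control range.

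**Figure D5:**
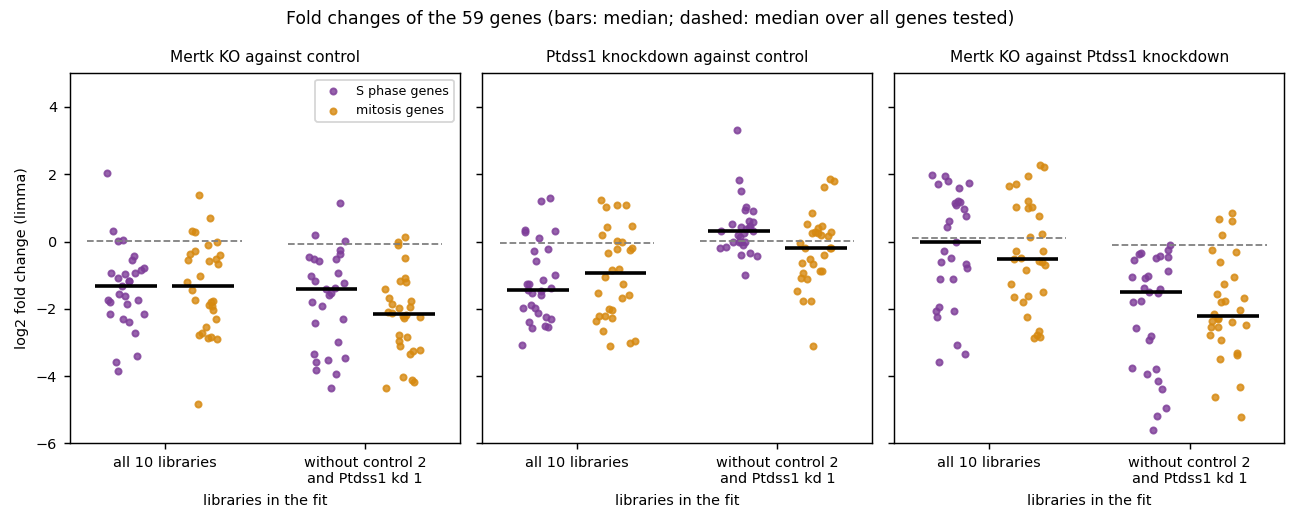
Log2 fold change (limma) of each of the 59 genes in the 3 comparisons, with all 10 libraries and without control replicate 2 and Ptdss1 knockdown replicate 1; black bars are medians of the class and dashed lines the median over all genes tested. Without the 2 libraries the medians for Mertk KO against control stay below 0, at -1.40 and -2.16, those for Ptdss1 knockdown against control lie at 0.32 and -0.18, and those for Mertk KO against Ptdss1 knockdown lie at -1.51 and -2.20.

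The direct comparison of Mertk KO with Ptdss1 knockdown over all libraries had medians of -0.02 for S phase genes and -0.51 for mitosis genes. Of these, 15 of 29 and 18 of 30 were below 0. Over all genes the median was 0.11 and 46.0% were below 0. The S phase median was 0.24 with upper-quartile scaling and 0.07 with scaling by totals. In limma 0 of 59 passed the threshold, against 0.00% of all genes, and 0 had an unadjusted p below 0.05, against 3.73%. The comparison shares libraries with those against control and is no separate evidence for either.

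Rfc3 and Tacc3 were the 2 genes (3.39%) whose Mertk KO libraries all lay below Ptdss1 knockdown, against 2.32% of all genes, and 0 lay above, against 2.91%. Rfc3 was at 9.59, 8.25 and 8.20 in Ptdss1 knockdown and 7.15, 6.96, 3.88 and 7.72 in Mertk KO, a fold change of -2.25 (SE 1.2, limma adjusted p = 0.805). Tacc3 was at 9.89, 7.65 and 7.74 against 6.38, 6.61, 2.55 and 7.11, a fold change of -2.77 (SE 1.47, limma adjusted p = 0.805). For both, the low-detection knockdown library held the highest value.

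Without that library, Ptdss1 knockdown replicate 1, all 29 S phase genes and 26 of 30 mitosis genes were lower in Mertk KO, with medians of -1.51 and -2.20. Over all genes 56.7% were lower, with a median of -0.11. With 2 knockdown libraries left, 25 genes (42.4%) had groups apart in that direction, against 6.77% of all genes, and 0 in the other, against 5.92%. There 0 of the 59 passed the threshold and 8 had an unadjusted p below 0.05, against 2.14% of all genes. With control replicate 2 left out as well, which leaves the compared libraries as they were and changes the shared spread, 0 passed the threshold, against 0.00865%, and 16 had an unadjusted p below 0.05, against 3.36%. Chaf1a was at 1.45, 7.95 and 6.95 in Ptdss1 knockdown and 6.03, 1.40, 0.0 and 0.0 in Mertk KO, a fold change of -3.59 (SE 2.00, limma adjusted p = 0.805), and of -5.59 without replicate 1. The fold change of Smc4 went from 2.28 (SE 1.14, limma adjusted p = 0.805) to 0.19 without that library. Leaving out Mertk KO replicate 4 instead gave medians of 0.38 and 0.63.

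Other genes of the cell cycle were read from 4 lists that hold none of the 59. In Mertk KO against control, 23 of 36 other replication genes were below 0 with a median log2 fold change of -0.42, 40 of 53 other mitosis genes with -1.37, 16 of 24 genes of G1 entry and the E2F, RB and DREAM complexes with -0.31, and 7 of 9 inhibitors with -0.55; 0 in any list passed limma's threshold. Orc6, a subunit of the origin recognition complex, was at 8.72, 8.67 and 8.54 in control against 6.70, 7.80, 1.78 and 3.29 in Mertk KO, a fold change of -3.75 (SE 1.55, limma adjusted p = 1.0). E2f2 was at 8.42, 8.73 and 7.69 against 6.19, 5.96, 0.0 and 6.08, a fold change of -3.73 (SE 1.92, limma adjusted p = 1.0). For both genes, which were picked for a low p, the groups were apart, as for 2.62% of all genes tested in that direction. The 2 of lowest p among other mitosis genes, Kif18b and Cdc25c, overlapped. Kif18b was at 4.62, 9.59 and 0.79 in control against 1.3, 1.4, 0.0 and 0.0 in Mertk KO.

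Cdkn1a, which encodes the p21 inhibitor of cyclin-dependent kinases, went against most of its list, at 12.33, 11.80 and 12.19 in control against 13.87, 12.41, 12.85 and 12.94 in Mertk KO. All 4 were above all controls, as for 3.00% of all genes tested, and the fold change was 0.91 (SE 0.41, limma adjusted p = 1.0). Btg2, an antiproliferative gene, was at 12.71, 13.56 and 12.47 against 12.57, 11.81, 11.70 and 12.10, a fold change of -0.87 (SE 0.41, limma adjusted p = 1.0), and the groups overlapped.

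In Ptdss1 knockdown against control the same lists had 21 of 36, 37 of 53, 15 of 24 and 7 of 9 genes below 0, with medians of -0.25, -0.90, -0.94 and -0.44, and 0 genes past the threshold. Without the low-detection libraries the medians were 0.14, 0.02, 0.28 and -0.26. Pold3, a subunit of polymerase delta, lay higher in the knockdown, at 11.88, 9.68 and 8.62 against 8.23, 8.57 and 8.15 in control, a fold change of 1.74 (SE 0.81, limma adjusted p = 0.841). Its highest value was again in the low-detection library.

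The library kit does not mark strand, so reads of genes that overlap on opposite strands cannot be told apart. The exons of Fen1 overlap the antisense gene Gm10143 over 78.8% of their length, those of Gins2 overlap Gse1 over 67.3% and those of Chaf1a overlap Ubxn6 over 52.5%. The values of these 3 genes are uncertain for that reason. The shares count exon bases and not reads, and the part of the overlapping genes in the reads was not tested. Smaller overlaps were found for Kif20a with Cdc23 (29.3%), Ube2c with Tnnc2 (22.8%) and Ccne2 with Ints8 (17.4%). Among genes named above, further overlaps included Rfc4 with Eif4a2 (12.7%), Prc1 with Rccd1 (11.1%) and Rfc5 with Wsb2 (10.7%).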

How the data were processed

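Macrophages sorted from tumours gave 10 libraries. Per the labels' protocols, mRNA was copied with the SMART-Seq v4 kit, with 16 cycles of PCR, and an unstranded kit and 1 run of 75 cycles on a NextSeq 500 followed. STAR, RSEM and mm10 are named in the submitters' processing notes, with no versions. No source used here names the normalisation tool. The authors deposited 1 value per gene and library with a decimal comma and no stated unit. Read from the values, the deposited numbers are log2 of size-factor-normalised reads plus a pseudocount of 1. After undoing this, 100% of values fell on whole reads within 0.01 of a read, and these reads give depth, detection and RPM. All 21938 gene IDs matched the GENCODE M21 annotation of mm10, the source of gene coordinates.

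Genes with at least 10 reads in at least 3 libraries were tested in limma 3.58.1 under R 4.3.3 (limma-trend, robust moderation, 1 mean per group, all libraries in 1 fit, no covariate, two-sided, Benjamini-Hochberg over 11564 genes, threshold 0.05). The plan named a count test should the files hold counts; as they hold log2 values, it was not run. The fit was also run on simulated reads with known changes in well-read genes. Those reads lacked the uneven detection seen here, so the run does not show how the test performs on these libraries. Fold changes are on the log2(value + 1) scale, which makes changes of weakly expressed genes look smaller. The p-values are this test's, with none from the authors.

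The 59 genes, their classes, the 4 cell cycle lists and the 11 marker lists were chosen with earlier results of these data known, so no test over a list was made and the count of genes below 0 is a description. Named with every library value are the gene of highest mean in each class, Mki67, Top2a, the 4 of lowest p in each comparison, and up to 6 genes per comparison whose groups did not overlap, by p; Cdt1 and Lig1 were named after their values were seen, to complete the 10. Of the list genes, only some of the 2 of lowest p per list are given. Alternatives were other scalings, filters, models and pseudocounts, thinning, the number of detected genes as covariate, and leaving out libraries; leaving libraries out of the counts of groups that do not overlap was added after seeing the data. Replicate numbers follow the order of the samples and pair nothing. Every library was used.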

Additional observations from a re-analysis of the deposited data

Results flagged for a closer look

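In all, 6 values stood apart from the other libraries of their group, all among the 4 libraries labelled Mertk KO, the only group large enough for the check. E2f1 was highest in replicate 4, at 9.44 against 7.26 to 7.47 in the others. Mki67 was highest in replicate 3, at 10.51 against 8.4 to 8.71. Prc1 was lowest in replicate 3, at 0.86 against 4.58 to 4.92. Tacc3 was lowest in the same library, at 2.55 against 6.38 to 7.11. Tk1 was lowest in replicate 2, at 6.47 against 7.69 to 7.75. Ube2c was lowest in replicate 4, at 0.0 against 6.90 to 7.62. All values are log2(normalised reads + 1). Of 25 values checked 6 were set apart, where chance does so for about 1 in 20, and genes of 1 library are not independent. Replicates 3 and 4 are the 2 Mertk KO libraries with the fewest detected genes, 9585 and 10205, and the part of detection in these values was not tested.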

How the results depend on the processing

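None of the 59 genes passed the threshold under any alternative tried, 14 processing settings and 10 left-out libraries, in any of the 3 comparisons. The medians for Mertk KO against control stayed below 0 throughout, from -1.52 to -0.98 for S phase and from -2.16 to -0.55 for mitosis genes. The medians for Ptdss1 knockdown against control ran from -2.67 to 0.47 and from -2.21 to 0.18, and those for Mertk KO against Ptdss1 knockdown from -1.51 to 0.94 and from -2.20 to 0.63. Of 750 alternative values for 32 named fold changes, 748 kept their sign and their side of the threshold. Most of the 32 were picked for a low p or for groups apart in these data, and none passed the threshold. The count therefore says little about stability, and it ignores size: Smc4 in the direct comparison fell to 0.19 and counts as kept. Mki67 in Mertk KO against control was 0.14 both without control replicate 2 and without both low-detection libraries. It ran from -1.40 to 0.14 without 1 library each.

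Over all genes, the 2 called in Mertk KO against control became 0 with upper-quartile factors, scaling by totals, no filter, a filter of 50 reads, and 10 reads in all 10 libraries, 1 without robust moderation, 25 with library weights, and 0 to 4 without 1 library each. Ptdss1 knockdown against control gave 2 with library weights. Mertk KO against Ptdss1 knockdown gave 35 with library weights, 1 with the number of detected genes as covariate and 1 without both low-detection libraries. The unadjusted p was below 0.05 for 335 and 431 genes in these last comparisons, where 0 were called. The cause was not tested.

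Groups were apart for 17 genes below and 1 above in Mertk KO against control without both low-detection libraries, for 1 below and 3 above in Ptdss1 knockdown against control, and for 25 below in the direct comparison; fewer libraries make this easier. Without 1 library each the counts were 11 to 17 below and 0 to 2 above, 0 to 7 and 0 to 2, and 2 to 25 and 0 to 1. At 1 read or more, 59 genes were detected in control replicate 3 and in Mertk KO replicates 1 and 2, 54 in Mertk KO replicate 3, 46 in Ptdss1 knockdown replicate 1 and 58 in replicate 2. No paired analysis was possible because the labels give no replicate numbers, only sample names.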
